A study of Mus musculus with 6 samples.

Results

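The mouse genes Iqgap1, Iqgap2 and Iqgap3, their transcript isoforms and the circular RNAs (circRNAs) formed from their exons were followed in injured and sham-operated spinal cord. The members were taken by gene name, with earlier results of the same injury-against-sham contrast known. Their differences between the groups are therefore given as a description. Where the fits across all features are reported, the number of members called is listed beside the number of all features called, and nothing is read from it. The 3 genes were 3 of 29057 gene names in the isoform table. They held 20 of its 194125 isoforms, of which 11 belonged to Iqgap1, 1 to Iqgap2 and 8 to Iqgap3. Of 17440 circRNAs, 5 had one of them as host gene, 4 at Iqgap1 and 1 at Iqgap3, and 0 at Iqgap2.

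IQGAP proteins are large scaffolds of the cell cortex. They hold the active forms of the GTPases Cdc42 and Rac1, bind calmodulin and light chains through their IQ motifs, and tie actin filaments to microtubule tips, cell contacts and the MAP kinase cascade. Despite their name they do not speed up GTP hydrolysis. IQGAP1 is made in most cell types and is known from migrating cells and growing axons, IQGAP2 is best known from liver and platelets, and IQGAP3 from dividing cells. A circRNA arises when the end of a downstream exon is joined to the start of an exon upstream of it, which closes the exons between into a ring.

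All libraries came from spinal cord of male C57BL/6 mice aged 8 weeks. The TSCI group had a laminectomy, the opening of the vertebral arch, followed by a moderate contusion from a dropped weight; the sham group had the laminectomy alone. Each group had 3 libraries, and the labels name 48 mice in sets of 8 without saying whether a set was pooled or how long after injury the cord was taken. The p-values below measure the spread between these libraries, which may be technical. Total RNA was depleted of ribosomal RNA and sequenced in lanes that differed between libraries: replicate 1 of each group was in lane 8, sham replicate 2 in lane 3 and the others in lane 1. The aligned bases implied by the deposited values ranged from 4.46 to 9.16 gigabases per library. Neuron, astrocyte and oligodendrocyte markers, which define the cord, had summed levels of 724 to 1106, 294 to 1413 and 1581 to 5315 FPKM in TSCI and 650 to 1571, 228 to 1313 and 989 to 6480 FPKM in sham. FPKM are fragment counts divided by transcript length and sequencing depth, so they allow levels of different genes to be compared per length.

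The exon structure of the circRNAs is given first, since the values below refer to it. Positions are on GRCm38 and exons are numbered along the full-length isoform in GENCODE M21. At Iqgap1 (ENSMUSG00000030536, chromosome 7, 80711583 to 80825974, minus strand; isoform ENSMUST00000167377, 38 exons, 1657 codons) the circRNAs lay in different parts of the gene. CircRNA808 held exons 9 to 11 (80756180 to 80758258, 334 bases when spliced, codons 277 to 388). CircRNA807 held exons 25 and 26 (80733986 to 80735637, 389 bases, codons 981 to 1110). CircRNA8768 held exons 30 to 36 (80720869 to 80728085, 963 bases, codons 1263 to 1584). CircRNA11501 held exons 32 to 35 (80722962 to 80726101, 604 bases, codons 1342 to 1543) and so lay wholly within circRNA8768. At Iqgap3 (ENSMUSG00000028068, chromosome 3, 88081971 to 88121048, plus strand; isoform ENSMUST00000071812, 38 exons, 1632 codons) circRNA2702 held exons 13 to 19 (88096902 to 88102067, 1014 bases, codons 432 to 769). Every one of the 5 was built from coding exons only, with no part of a UTR. The spliced length was a multiple of 3 in circRNA8768 and circRNA2702 and was not in the other 3.

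The sequence across the back-splice tells each circRNA from its linear host, and 25 bases of each side are shown for all 5 in the direction of the RNA. They were assembled from GENCODE M21 transcript sequence at the deposited ends, not read from sequencing reads. Lower case marks the end of the last exon and capitals mark the start of the first exon, to which it is joined.
circRNA808: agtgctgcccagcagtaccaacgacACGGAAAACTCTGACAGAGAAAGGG
circRNA807: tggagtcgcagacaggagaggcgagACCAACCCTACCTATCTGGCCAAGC
circRNA8768: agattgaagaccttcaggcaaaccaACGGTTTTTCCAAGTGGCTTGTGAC
circRNA11501: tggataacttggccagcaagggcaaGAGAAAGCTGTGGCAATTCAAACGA
circRNA2702: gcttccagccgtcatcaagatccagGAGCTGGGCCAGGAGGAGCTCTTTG

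**Figure D1:**
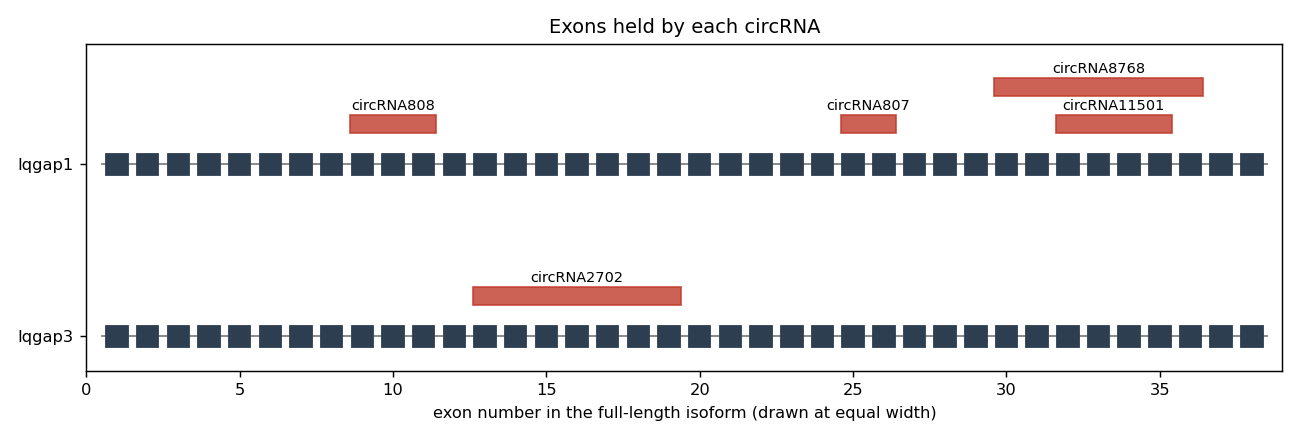
Exons of the full-length isoforms of Iqgap1 and Iqgap3 (dark boxes, numbered along the x axis and drawn at equal width) with the exons that each circRNA holds (red bars). CircRNA11501 lies within circRNA8768, and the Iqgap3 circRNA spans exons 13 to 19, where no Iqgap1 circRNA lies.

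Iqgap1 and Iqgap3 shared their exon plan: 27 of the 38 exons had the same number and the same length in both genes, and of the 36 internal exons another 9 differed in length by a multiple of 3. By exon number, the Iqgap3 circRNA overlapped none of the 4 Iqgap1 circRNAs. The introns upstream of the first circularised exon were 1499, 624, 763 and 637 bases for circRNA808, circRNA807, circRNA8768 and circRNA11501, against a median of 1139 bases over all introns of Iqgap1. The introns downstream were longer, at 3826, 3603, 3749 and 1970 bases. At circRNA2702 the flanking introns were 2154 and 1992 bases, against a median of 656 in Iqgap3. The coding sequences were 62.3% identical between Iqgap1 and Iqgap3, 65.8% between Iqgap1 and Iqgap2 and 60.5% between Iqgap2 and Iqgap3. The longest run of identical bases shared by any pair was 29, between Iqgap1 and Iqgap3.

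The first comparison asked how the level of the 3 genes stood in injured against sham cord. All 3 were higher in every TSCI library than in any sham library. In the group means of unscaled FPKM the difference was 5.31-fold for Iqgap1, 10.3-fold for Iqgap2 and 12.9-fold for Iqgap3. The gene level was the sum over isoforms that match or share structure with an annotated transcript (class codes =, j, c, o and e). Over all 16740 genes with a mean of at least 0.5 FPKM, 13.4% were higher in every TSCI library than in any sham library and 3.13% were lower. The members were chosen on this contrast, so nothing is read from their share. In bulk tissue, more cells of a type and more RNA per cell cannot be told apart.

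Iqgap1 was at 30.6, 12.3 and 25.5 FPKM in replicates 1 to 3 of TSCI, against 9.03, 1.70 and 2.14 FPKM in those of sham. The groups did not overlap, although the lowest TSCI library was only 1.36 times the highest sham library, sham replicate 1. The means were 22.8 ± 9.47 and 4.29 ± 4.11 FPKM (SD, n = 3 each), and the log2 fold change was 2.51 ± 0.73 (SE) on the log2(FPKM + 0.5) scale. Iqgap1 stood at the 87.5 to 93.8 percentile of expressed genes in the TSCI libraries and at the 42.1 to 76.8 percentile in the sham libraries.

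Iqgap2 (ENSMUSG00000021676, chromosome 13, 95627177 to 95891922, minus strand, 36 exons) was at 4.44, 1.19 and 2.70 FPKM in TSCI against 0.616, 0.114 and 0.0765 FPKM in sham. The groups did not overlap, and replicate 1 was the highest library of each. The means were 2.78 ± 1.63 and 0.269 ± 0.301 FPKM (SD, n = 3 each), and the log2 fold change was 2.03 ± 0.68 (SE). Its whole value came from the full-length isoform ENSMUST00000068603. F2rl2, a protease-activated receptor gene on the opposite strand within Iqgap2, was at 5.56, 0.475 and 1.04 FPKM in TSCI against 3.86, 1.29 and 1.16 FPKM in sham, so its groups overlapped.

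Iqgap3 was at 2.73, 1.403 and 2.16 FPKM in TSCI against 0.0629, 0.0140 and 0.411 FPKM in sham. The lowest TSCI library was 3.42 times the highest sham library, which was sham replicate 3. The means were 2.10 ± 0.664 and 0.162 ± 0.216 FPKM (SD, n = 3 each), and the log2 fold change was 1.98 ± 0.63 (SE). On this scale the changes of Iqgap2 and Iqgap3 are understated, since their mean sham levels lie below the pseudocount of 0.5 FPKM.

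In the fit across all genes, limma called 149 genes (0.89%) at an adjusted p of 0.05, of which 147 (0.878% of all) were higher in TSCI and 2 (0.0119%) lower. None of the 3 IQGAP genes was among them, and all 3 had an unadjusted p under 0.05, as did 1677 genes (10%) that were higher. Over all genes the median log2 fold change was 0.44, and it was 0.06 after median-ratio scaling of the libraries. Relative to 0.44, Iqgap1 was 2.08, Iqgap2 1.59 and Iqgap3 1.54 higher on the log2 scale. Without sham replicate 1, Iqgap1 and Iqgap2 were among the 1448 genes called and the log2 fold change of Iqgap1 was 3.18. Iqgap1 was also among the 644 genes called with lane 8 as a covariate and the 616 called without both lane 8 libraries. Under the other alternatives without a replicate block, none of the 3 was called.

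**Figure D2:**
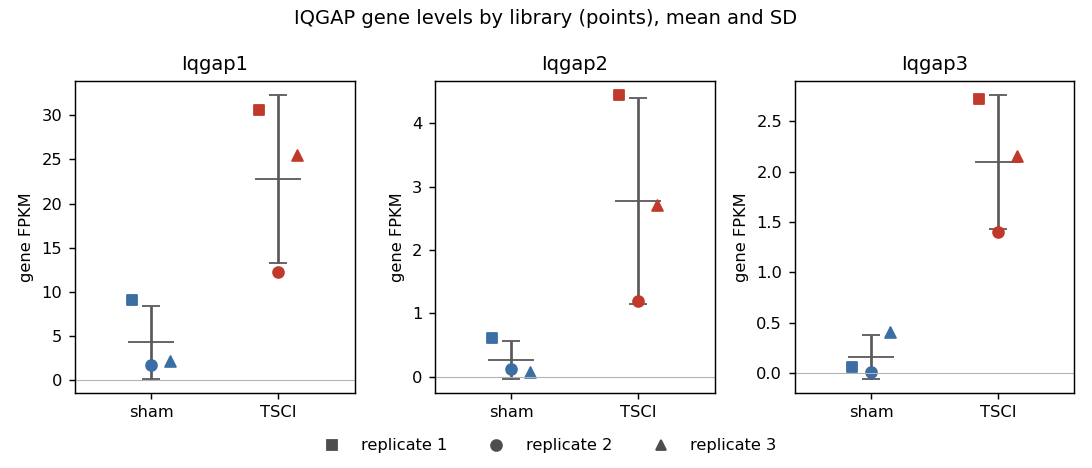
Gene FPKM of Iqgap1, Iqgap2 and Iqgap3 (y axis, linear, each gene on its own scale) in the 3 sham (blue) and 3 TSCI (red) libraries. Symbols mark the replicate, and bars give the mean and SD. In each gene the lowest TSCI point lies above the highest sham point, by the least in Iqgap1, where sham replicate 1 reaches 9.03 FPKM.

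The 3 genes kept 1 part of their order in every library: Iqgap1 was the highest, with 81.0% to 84.0% of their summed FPKM in TSCI and 81.4% to 93.0% in sham. Iqgap1 was 6.90 to 10.3 times Iqgap2 in TSCI and 14.7 to 27.9 times Iqgap2 in sham. Iqgap2 and Iqgap3 had no fixed order. Their ratio was 1.63, 0.848 and 1.25 in TSCI and 9.80, 8.18 and 0.186 in sham, with sham replicate 3 apart from the other 2. The sham ratios divide values near 0, since Iqgap2 reached at most 0.616 FPKM there and Iqgap3 at most 0.411 FPKM. In sham replicate 2 an isoform that retains an intron made up 100% of Iqgap3. No order is therefore read from the sham ratios.

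The mix of Iqgap1 isoforms differed between libraries. The full-length isoform ENSMUST00000167377 (7444 bases) was at 24.99, 9.44 and 14.5 FPKM in TSCI against 1.46, 1.70 and 1.59 FPKM in sham. Its sham values thus lay close together, where those of the gene ranged from 1.70 to 9.03 FPKM. Its log2 fold change was 2.91 ± 1.03 (SE). It made up 81.5%, 77.0% and 57.1% of the gene in TSCI and 16.2%, 100% and 74.3% in sham.

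An assembled isoform without an Ensembl ID, spanning exons 7 to 38, was at 4.40 FPKM in sham replicate 1, which was 48.7% of the gene there. It was at 0 in the other 2 sham libraries and at 0.0563, 0.632 and 0.265 FPKM in TSCI. Another assembled isoform, spanning exons 1 to 25, was at 8.71 FPKM in TSCI replicate 3 (34.2% of the gene), at 2.23 FPKM in TSCI replicate 1 and at 0 in the other 4 libraries. Both were therefore led by 1 library, and the level of the full-length isoform depends on how reads of shared exons were divided among them. The annotated isoform ENSMUST00000205383, which retains an intron, was at 0.737, 0.775 and 0.754 FPKM in TSCI against 0.514, 0.000069 and 0.256 FPKM in sham. The other annotated Iqgap1 isoforms reached at most 1.19 FPKM. ENSMUST00000206149 and ENSMUST00000205824, which retain introns, were at 0.320 to 1.02 and 0.370 to 0.494 FPKM in TSCI against 0 to 0.868 and 0 to 0.797 FPKM in sham. ENSMUST00000205540 was at 0.218 to 1.19 FPKM against 0 to 0.751 FPKM, and the decay target ENSMUST00000205606 was at 0 in 4 libraries. In all 4 the groups overlapped, and sham replicate 1 was the highest sham library.

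**Figure D3:**
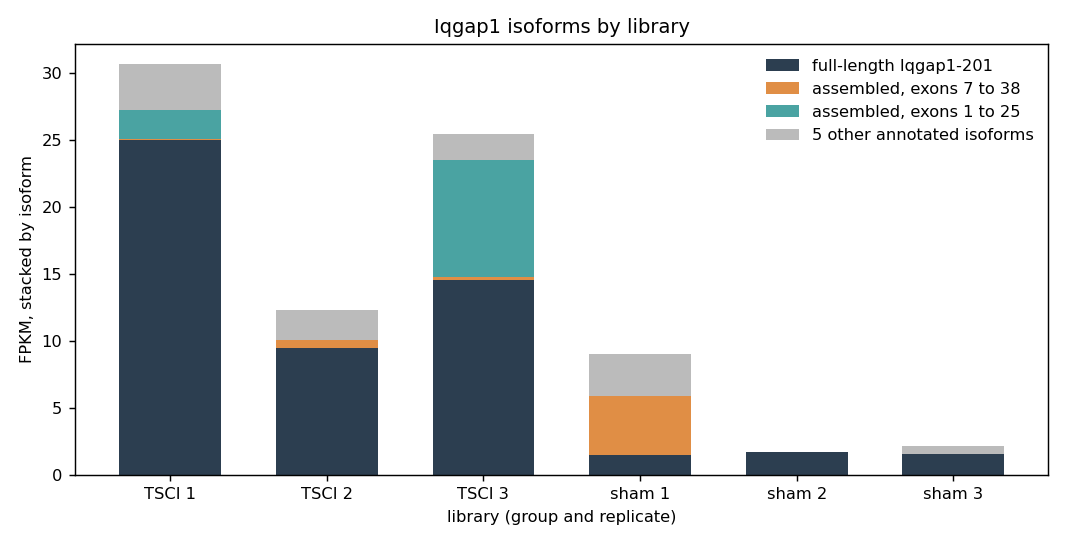
FPKM of the Iqgap1 isoforms in each library, stacked (y axis, linear). The full-length isoform (dark) is at 1.46 to 1.70 FPKM in the 3 sham libraries, while an assembled isoform of exons 7 to 38 (orange) adds 4.40 FPKM in sham replicate 1 and one of exons 1 to 25 (teal) adds 8.71 FPKM in TSCI replicate 3.

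Iqgap3 was also divided unevenly. Its full-length isoform was at 2.73, 1.18 and 0.983 FPKM in TSCI against 0.0629, 0 and 0.0877 FPKM in sham, with no overlap. In TSCI replicate 3 it made up 45.5% of the gene, against 100% in TSCI replicate 1. There, the isoform ENSMUST00000195465, annotated as a target of nonsense-mediated decay, was at 0.568 FPKM, and ENSMUST00000193940, which retains an intron, was at 0.422 FPKM. In sham replicate 3 the latter was at 0.240 FPKM, more than the full-length isoform. ENSMUST00000194772 and ENSMUST00000193861, which also retain introns, reached 0.135 and 0.0504 FPKM in TSCI replicate 3 and were at 0 in every sham library. In all, 10 of the 20 isoforms of the 3 genes had a mean of at least 0.5 FPKM, and 4 of them were higher in every TSCI library than in any sham library, as were 5.64% of all 89293 isoforms tested. These were the full-length isoforms of the 3 genes and ENSMUST00000205383. By limma, 0 of the 10 passed an adjusted p of 0.05, as 0.208% of all isoforms did, and 2 had an unadjusted p under 0.05, as did 2558 higher and 1018 lower ones of the 89293.

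The differences were then taken within lanes. In lane 8, with 1 library of each group, the log2 difference was 1.71 for Iqgap1, 2.15 for Iqgap2 and 2.52 for Iqgap3. In lane 1, with 2 TSCI libraries and 1 sham library, it was 2.79, 2.01 and 1.30. The median of all genes was 0.04 in lane 8 and 0.47 in lane 1. Since every TSCI library lay above every sham library in each gene, the direction had to be the same in both lanes, and nothing is read from it. After median-ratio scaling of the libraries the groups still did not overlap in any of the 3 genes: Iqgap1 was at 21.1, 14.1 and 18.5 FPKM in TSCI against 6.23, 2.76 and 2.87 FPKM in sham. The scaling factors were 1.45, 0.870 and 1.38 in TSCI and 1.45, 0.615 and 0.745 in sham. With this scaling the log2 fold changes were smaller, at 2.11 for Iqgap1, 1.81 for Iqgap2 and 1.71 for Iqgap3.

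The second comparison was of the 5 circRNAs. All had higher group means in TSCI, from 3.34-fold in circRNA808 to 15.03-fold in circRNA2702 in the deposited circRNA FPKM. In circRNA807 and circRNA2702 every TSCI library lay above every sham library, a pattern that 4.81% of the 17363 tested circRNAs showed. In the other 3 the groups overlapped by a small margin. Nothing is read from these counts, since the members were chosen on this contrast.

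CircRNA807 (exons 25 and 26 of Iqgap1) was at 26.6, 13.3 and 18.6 FPKM in TSCI against 4.33, 2.09 and 1.77 FPKM in sham. The lowest TSCI library was 3.08 times the highest sham library. These values rested on estimated counts of 275, 186 and 341 in TSCI and 64, 32 and 27 in sham, and the log2 fold change from the counts was 2.77 by edgeR.

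CircRNA808 (exons 9 to 11) was at 25.5, 8.67 and 13.4 FPKM in TSCI against 9.06, 2.89 and 2.30 FPKM in sham. Sham replicate 1 lay just above TSCI replicate 2, so the groups overlapped. The log2 fold change from the counts was 1.74 by edgeR. Gm44649, a gene on the opposite strand that overlaps this circRNA, was at 1.07, 0.161 and 0.182 FPKM in TSCI against 0.962, 0 and 0 FPKM in sham. The sources used here do not say whether circRNA reads were counted by strand, so reads of the gene and of the circRNA cannot be told apart at these bases.

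CircRNA8768 (exons 30 to 36) was at 20.5, 4.02 and 9.61 FPKM in TSCI against 4.26, 1.41 and 2.24 FPKM in sham, with a log2 fold change of 1.94 by edgeR. CircRNA11501 (exons 32 to 35) was at 14.8, 2.91 and 4.51 FPKM in TSCI against 2.92, 0.652 and 1.12 FPKM in sham, with a log2 fold change of 2.16. In both, TSCI replicate 1 was the highest library and sham replicate 1 lay just above TSCI replicate 2. The log2 fold changes without TSCI replicate 1 were 1.42 and 1.44.

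The estimated counts of the nested circRNA8768 and circRNA11501 were fractional in 3 libraries. In TSCI replicate 3 the estimated counts were 436.5 and 128.5, in sham replicate 2 they were 53.5 and 15.5, and in sham replicate 3 they were 84.5 and 26.5. In each of these the pair summed to a whole number (565, 69 and 111), and in the other 3 libraries both counts were whole. Since one lies within the other, their values were not taken as independent measurements. CircRNA11501 had 45.4%, 45.3% and 29.4% of the count of circRNA8768 in TSCI and 42.9%, 29.0% and 31.4% in sham, with no separation of the groups.

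CircRNA2702, the only circRNA of Iqgap3, was at 1.56, 2.31 and 2.65 FPKM in TSCI against 0.182, 0 and 0.252 FPKM in sham. It was the lowest of the 5 circRNAs in every library, and its host was lower than Iqgap1 in every library. The estimated counts were 42, 84.25 and 126.5 in TSCI and 7, 0 and 10 in sham. For sham replicate 2, a count of 0 allows up to 3 counts, which is 0.0751 FPKM. The log2 fold change was 3.82 by edgeR, and it ranged from 3.28 to 4.95 when single libraries were left out. Within lane 8 the log2 difference was 1.59 and within lane 1 it was 1.98 on the log2(FPKM + 0.5) scale.

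In the fit across all circRNAs, edgeR called 0 of 17363 (0%) at an adjusted p of 0.05, and 805 higher (4.64%) and 1217 lower ones at an unadjusted p under 0.05. The 5 IQGAP circRNAs were among the 805. DESeq2, run as an alternative, called 199 circRNAs higher (1.15%) and 52 lower. CircRNA807, circRNA8768 and circRNA2702 were among the 199. The median log2 fold change of all circRNAs was 0.01.

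**Figure D4:**
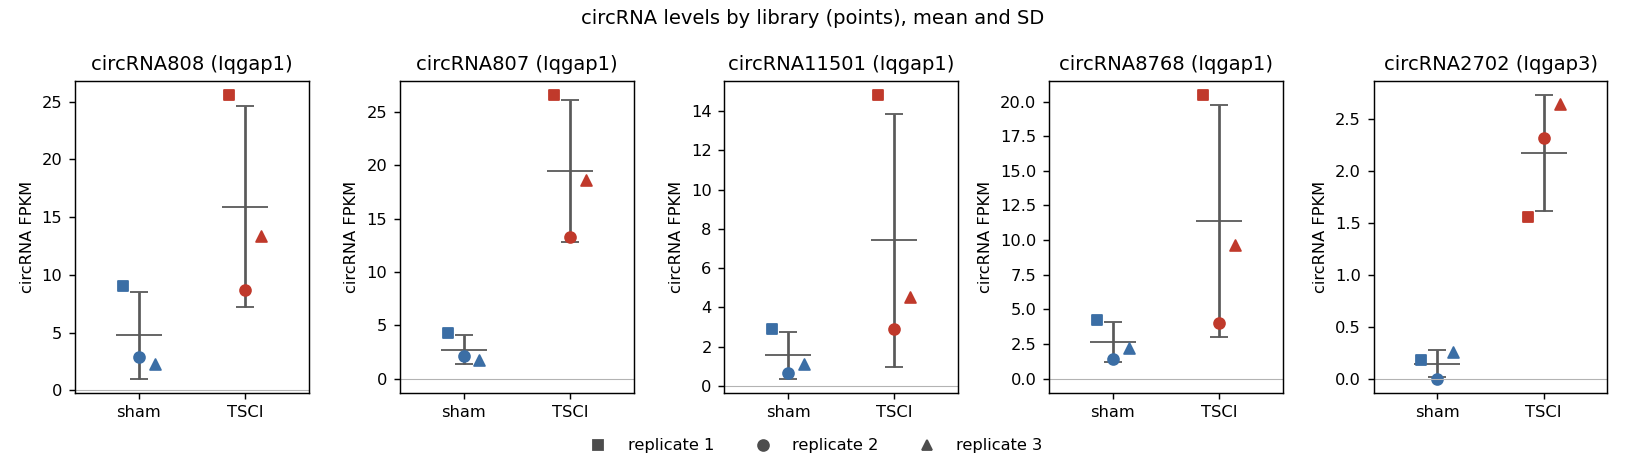
Deposited FPKM of the 5 IQGAP circRNAs (y axis, linear, each on its own scale) in the 3 sham (blue) and 3 TSCI (red) libraries, with the mean and SD. In circRNA807 and circRNA2702 the groups are apart; in the other 3, sham replicate 1 (blue square) lies just above TSCI replicate 2 (red circle).

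The 4 circRNAs of Iqgap1 did not keep a constant mix. CircRNA807 made up 30.4%, 46.1% and 40.3% of their summed FPKM in TSCI and 21.0%, 29.7% and 23.9% in sham. CircRNA808 made up 29.2%, 30.0% and 29.1% in TSCI and 44.0%, 41.0% and 30.9% in sham. Neither share overlapped between the groups, but the margins were small. For circRNA807 it was 30.4% in TSCI replicate 1 against 29.7% in sham replicate 2. For circRNA808 it was 30.0% in TSCI replicate 2 against 30.9% in sham replicate 3. The ratio of circRNA807 to circRNA808 was 1.04, 1.54 and 1.39 in TSCI and 0.478, 0.723 and 0.773 in sham, so circRNA807 was the higher of the pair in each TSCI library and the lower in each sham library. These shares come from the contrast on which the members were chosen and were not tested, and no background over other host genes is given.

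The circRNAs were set beside their host genes in each library. CircRNA807 had 0.867, 1.08 and 0.730 times the FPKM of Iqgap1 in TSCI and 0.479, 1.23 and 0.830 times in sham. CircRNA808 had 0.834, 0.707 and 0.526 times in TSCI and 1.003, 1.70 and 1.07 times in sham. Its ratio was thus lower in each TSCI library than in any sham library. How many of all circRNAs had ratios that separated the groups is not given, so nothing is read from this. CircRNA8768 had 0.667, 0.328 and 0.377 times in TSCI and 0.472, 0.830 and 1.05 times in sham. CircRNA11501 had 0.177 to 0.483 times in TSCI and 0.323 to 0.525 times in sham. CircRNA2702 had 0.571, 1.65 and 1.23 times the FPKM of Iqgap3 in TSCI and 2.89, 0 and 0.614 times in sham.

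Over all circRNAs, the median ratio of circRNA to host gene FPKM was 0.659 to 0.794 in the 6 libraries, with lower quartiles of 0.318 to 0.418 and upper quartiles of 1.23 to 1.55. CircRNA807 lay between the quartiles in every library, and each of the other 4 lay outside them in at least 1. The deposited circRNA FPKM equalled the estimated count per kilobase of the spliced exons and per library total of 26.6 to 47.2 (in units of 1e6 fragments), within 1% for 99.9% of exonic circRNAs. The counts of the circRNA table added up to 10.8% to 18.9% of those fragments. The sources used here do not say which reads were counted for a circRNA, and whether reads of linear RNA from the same exons are among them was not tested. The circRNA values were therefore not taken as independent of the host gene.

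**Figure D5:**
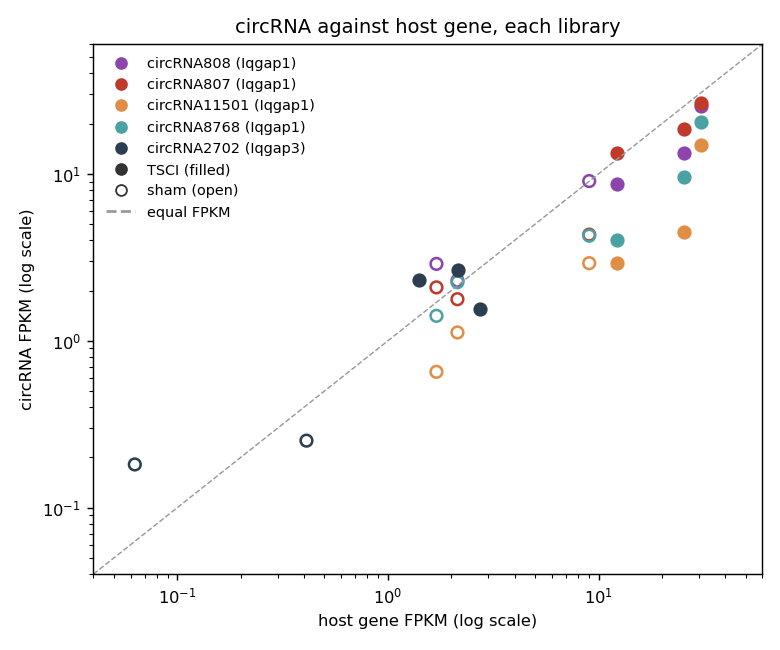
FPKM of each IQGAP circRNA (y axis, log scale) against the FPKM of its host gene (x axis, log scale) in each TSCI (filled) and sham (open) library. The dashed line marks equal values; circRNA2702 in sham replicate 2, at 0, is not drawn. Within each circRNA the sham points lie to the left of the TSCI points. On the y axis the groups overlap in circRNA808, circRNA8768 and circRNA11501. CircRNA11501 (orange) is the lowest of the Iqgap1 circRNAs in each library.

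The promoters of the 3 genes were searched for short words, since their levels were higher together in TSCI. The windows, from RefSeq on GRCm38.p6, cover 300 bases around the start of each gene, most of them upstream. The word TTTGAA, known as the cell cycle genes homology region (CHR) of genes that are on in dividing cells, was found once in Iqgap3 and in neither Iqgap1 nor Iqgap2. It occurred on either strand in 17.9% of all 32851 promoters. In Iqgap3 it lay on the minus strand, 19 bases before the RefSeq start, in the stretch below (chr3:88082022-88082047, shown on the plus strand with the word in capitals), which GENCODE M21 places in the first exon.
Iqgap3 CHR word: cggcgggagaTTCAAAactggcagga
The GC box word GGGCGG, on either strand, was found 4 times in Iqgap1, 4 times in Iqgap2 and 0 times in Iqgap3, and at least once in 35.7% of all promoters. CCAAT was found once, in Iqgap1, and occurred in 37.4% of promoters; TATAAA was in none of the 3 and occurred in 13.6%. The GC content of the windows was 68.3%, 74.3% and 55.3% for Iqgap1, Iqgap2 and Iqgap3, against a median of 52.7%. A match describes the letters only.

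The genes most like each member were ranked by Pearson correlation of log2(FPKM + 0.5) over the 6 libraries, among 13433 genes with no library at 0. For Iqgap1 these were Lcp1, Pros1, Rab34, Trf and Rasa4 (r = 0.997, 0.997, 0.997, 0.996 and 0.995). Lcp1 encodes L-plastin, an actin-bundling protein of leukocytes, and was at 42.7, 15.004 and 46.3 FPKM in TSCI against 10.4, 0.887 and 1.39 FPKM in sham. Like Iqgap1, it was highest among the sham libraries in replicate 1. For Iqgap2 the 5 were Ppp1r15a, Thbs2, Igtp, Myof and Jun (r = 0.994 to 0.997). For Iqgap3 they were Smoc2, AI607873, Espl1, Nfkbia and B4galt1 (r = 0.987 to 0.988). Smoc2, the nearest, was at 21.1 to 27.02 FPKM in TSCI against 7.85 to 11.6 FPKM in sham. AI607873 was at 3.00 to 7.17 FPKM in TSCI against 0.250 to 0.522 FPKM in sham, and Espl1 was at 1.06 to 1.65 against 0.0523 to 0.176 FPKM. Nfkbia was at 20.2 to 25.9 FPKM in TSCI against 7.23 to 12.1 FPKM in sham, and B4galt1 was at 6.64 to 11.6 against 0.879 to 1.66 FPKM. Whether the 5 genes listed for a member share a function was not tested. Among the members, r was 0.969 for Iqgap1 with Iqgap2, 0.888 for Iqgap2 with Iqgap3 and 0.833 for Iqgap1 with Iqgap3. These coefficients share the difference between the groups and the libraries' composition, and are descriptions.

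Partners of IQGAP proteins, and genes of processes they act in, were then read from the fit across all genes, in 8 lists of 107 distinct genes in all. The lists were chosen with earlier results of these data known, so nothing is read from their share of calls. By limma, 9 of the 107 passed an adjusted p of 0.05 as higher in TSCI, or 8.41%, against 0.878% of all genes, and 0 passed as lower. At an unadjusted p, 35 of the 107 were under 0.05, as were 1677 higher and 295 lower ones of all 16740 genes. Of all genes, 69.9% had a positive log2 fold change, and 13.4% were higher in every TSCI library than in any sham library. Genes whose groups did not overlap are counted for each list below, beside that 13.4%. Of the 9 calls, 6 came from the cytokinesis and cell division list, which names a process rather than binding partners. The 9 calls depended on the libraries and the summing. All were lost without TSCI replicate 3 (limma, adjusted p = 0.17 to 0.404), when all isoforms of a gene were summed (0.0565 to 0.746), and with no filter on low values (0.184 to 0.285).

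Among GTPases and their regulators at IQGAP, 0 of 12 passed and 5 of 12 had groups that did not overlap, with a median log2 fold change of 0.95. Rhoc, a GTPase of cell migration, averaged 66.6 ± 12.6 FPKM in TSCI and 14.1 ± 7.42 FPKM in the sham group (mean ± SD, n = 3 each, here and in the lists below). Racgap1, which acts in cytokinesis, had 10.0 ± 3.10 and 2.24 ± 2.75 FPKM. Rac2, the Rac of blood cells, had 6.14 ± 6.38 and 0.617 ± 0.379 FPKM, and Rhoa had 118 ± 33.9 and 38.02 ± 24.4 FPKM. Cdc42 and Rac1, the GTPases that IQGAP1 is best known to bind, were named after their values were seen. Cdc42 was at 150.6, 183 and 97.4 FPKM in TSCI against 49.2, 36.3 and 79.3 FPKM in sham, with no overlap, and did not pass (limma, adjusted p = 0.492). Rac1 was at 59.9, 18.2 and 33.1 FPKM in TSCI against 52.5, 11.7 and 9.62 FPKM in sham, so its groups overlapped.

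Calcium sensors and light chains that bind IQ motifs had 0 of 10 passing and 2 of 10 with groups that did not overlap. Their median log2 fold change was 0.18, below that of all genes. The nonmuscle myosin light chain Myl12a had 34.4 ± 5.80 FPKM in TSCI and 10.8 ± 1.83 in sham. Myl6, an essential light chain, had 290 ± 94.1 and 145 ± 50.8 FPKM. Calml4, a calmodulin-like gene, had 1.73 ± 1.76 and 0.174 ± 0.302 FPKM. Myl9 had 15.1 ± 13.1 and 5.07 ± 2.94 FPKM.

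Actin assembly genes had positive log2 fold changes in 22 of 22 members, with a median of 1.63, which is 1.19 above that of all genes. Of these, 1 passed, and 12 had groups that did not overlap. Arpc1b, the Arp2/3 complex subunit of blood cells, was at 35.96, 86.4 and 152 FPKM in TSCI against 5.46, 3.14 and 7.92 FPKM in sham (log2 fold change 3.79 ± 0.72, SE; adjusted p = 0.0266 by limma). Lcp1 did not pass (limma, adjusted p = 0.0768). The membrane-to-actin linker Msn (moesin) had 90.3 ± 63.4 FPKM in TSCI and 10.7 ± 11.5 in sham, and its relative Ezr (ezrin) had 22.4 ± 14.0 and 3.75 ± 3.41 FPKM.

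Microtubule tip proteins and septins had 0 of 13 passing and 3 of 13 with groups that did not overlap. Their median log2 fold change was 0.21. The septin Sept9 had 18.8 ± 5.82 FPKM in TSCI and 4.04 ± 4.64 in sham, and Sept2 had 52.7 ± 21.9 and 16.3 ± 9.90 FPKM. Mapre1, which encodes the end-binding protein EB1, had 26.1 ± 8.12 and 8.83 ± 5.81 FPKM. Pafah1b1, the dynein regulator Lis1, had 23.4 ± 8.88 and 41.2 ± 32.5 FPKM.

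Among cell adhesion partners, 2 of 14 passed and 8 had groups that did not overlap, with a median log2 fold change of 1.14. Itga5, the fibronectin receptor subunit, was at 25.8, 11.0 and 11.8 FPKM in TSCI against 0.893, 0.840 and 1.47 FPKM in sham (log2 fold change 3.33 ± 0.66, SE; adjusted p = 0.0297 by limma). Lgals3, the galectin of phagocytes, was at 85.6, 773 and 256 FPKM in TSCI against 1.72, 21.9 and 11.3 FPKM in sham (log2 fold change 4.94 ± 0.97, SE; adjusted p = 0.0291 by limma). The hyaluronan receptor Cd44 had 31.95 ± 16.6 and 5.39 ± 2.65 FPKM, and Cdh5, the cadherin of endothelium, had 12.2 ± 9.27 and 1.59 ± 1.81 FPKM.

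The MAP kinase and PI3K-Akt cascade had 0 of 16 passing and 0 with an unadjusted p under 0.05, with a median log2 fold change of 0.62. In 1 of 16 the groups did not overlap. Its gene of lowest p, Akt1, had 47.8 ± 21.6 FPKM in TSCI and 20.0 ± 16.3 in sham. Map2k1, the kinase MEK1, had 28.2 ± 9.63 and 13.3 ± 4.77 FPKM. Mapk3, the kinase ERK1, had 69.2 ± 29.4 and 35.7 ± 20.8 FPKM, and the endothelial receptor Kdr had 2.58 ± 1.99 and 0.943 ± 0.935 FPKM. The exocyst, which tethers vesicles to the membrane, likewise had 0 of 8 passing and 0 at an unadjusted p under 0.05. Groups that did not overlap were found in 0 of 8. Exoc4 had 17.5 ± 7.61 and 8.09 ± 6.89 FPKM, Exoc7 had 9.27 ± 3.78 and 5.31 ± 5.36, Exoc2 had 12.1 ± 4.89 and 7.92 ± 6.81, and Exoc3 had 11.9 ± 3.65 and 8.30 ± 6.52 FPKM.

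Cytokinesis and cell division genes, the setting in which IQGAP3 is best known, had 6 of 12 passing as higher and 10 of 12 with groups that did not overlap. Their median log2 fold change was 3.10, which is 2.66 above that of all genes. Top2a, the topoisomerase of dividing cells, was at 23.3, 13.4 and 30.5 FPKM in TSCI against 1.44, 0.117 and 0.816 FPKM in sham (limma, adjusted p = 0.0136). Mki67, the proliferation marker Ki-67, was at 24.1, 4.202 and 11.8 FPKM against 1.04, 0.380 and 0.147 (limma, adjusted p = 0.0434). The mitotic cyclin Ccnb1 was at 6.95, 5.31 and 13.8 FPKM against 0.235, 1.09 and 0.268 (limma, adjusted p = 0.0497).

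The other 3 that passed had sham libraries listed at 0. The mitotic kinase Cdk1 was at 5.63, 19.3 and 20.7 FPKM in TSCI against 0.0882, 0 and 1.02 FPKM in sham (limma, adjusted p = 0.0213). The mitotic kinesin Kif20a was at 6.58, 3.10 and 8.85 FPKM against 0.258, 0 and 0.00761 (limma, adjusted p = 0.0286). The kinase Aurkb was at 4.25, 2.06 and 5.47 FPKM and listed at 0 in all 3 sham libraries (limma, adjusted p = 0.0403).

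Marker lists of cell types were also read from the fit across all genes. Over all genes, limma called 0.878% as higher in TSCI, and 13.4% were higher in every TSCI library than in any sham library. These lists too were chosen with earlier results known, so nothing is read from their share. The 12 monocyte and macrophage markers had groups that did not overlap in 12 of 12, and 7 passed; their summed level was 570 to 2949 FPKM in TSCI and 45.4 to 134 FPKM in sham. The defining markers Cd68, Fcgr1 and Ly6c2 were listed at 0 in at least 1 library. Homeostatic microglia markers had 1 of 10 passing and 5 of 10 with groups that did not overlap. They summed to 247 to 479 against 64.9 to 106 FPKM. Pericyte, smooth muscle and fibroblast markers had 1 of 10 passing and 8 of 10 with groups that did not overlap. They summed to 605 to 802 against 141 to 208 FPKM.

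Endothelium markers, of which Cdh5 and Kdr are also in the partner lists, had 0 of 10 passing and 2 of 10 with groups that did not overlap. They summed to 101 to 135 FPKM in TSCI against 51.4 to 61.9 in sham. Platelet markers had 0 of 7 tested genes passing and 2 of 7 with groups that did not overlap. They summed to 50.3 to 74.6 against 9.75 to 27.0 FPKM. Erythrocyte markers had 0 of 7 passing and 5 of 7 with groups that did not overlap, and summed to 9111 to 140404 against 3039 to 30565 FPKM. Skeletal muscle markers had 0 of 10 passing and 4 of 10 with an unadjusted p under 0.05, with 0 of 10 positive log2 fold changes and a median of -1.94; they summed to 24.1 to 125 against 25.4 to 893 FPKM. Ependymal markers had 0 of 7 passing and 1 of 7 with groups that did not overlap, and their summed levels overlapped. Neuron, astrocyte and oligodendrocyte markers had 0 of 12, 0 of 8 and 0 of 10 passing. In 1 of 12 neuron and 1 of 10 skeletal muscle markers every TSCI library lay below every sham library. No astrocyte or oligodendrocyte marker had groups that did not overlap. The part that these cell types have in the IQGAP values was not tested.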

How the data were processed

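The authors deposited FPKM and coverage (a signal per base) for each assembled isoform, and estimated counts and FPKM for each circRNA. HISAT2, StringTie and TopHat are named in the submitters' processing notes, without versions; the sources used here do not name a circRNA caller or genome build. Of 78098 isoform IDs found in GENCODE M21, 94.6% had the same position, so coordinates are given as GRCm38. Of the deposited circRNA values, 33.8% were whole (within 1e-06); they are estimated counts, and were rounded where the design had foreseen whole ones.

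Gene and isoform FPKM were tested on log2(FPKM + 0.5) with limma 3.58.1 (mean-variance trend; mean of at least 0.5 FPKM), and circRNA counts with edgeR 4.0.16 (TMM, quasi-likelihood; at least 10 counts, in at least 3 libraries), with DESeq2 1.42.0 as an alternative. Benjamini-Hochberg adjustment ran over the whole table, with a threshold of 0.05. R 4.3.3, Python 3.11.15 and Biopython 1.88 were used. The fits were also run on simulated data, with planted changes larger than the main fold changes of the IQGAP genes and circRNAs. That run does not bear on changes of the IQGAP size. Aligned bases came from coverage and FPKM.

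The members and lists were chosen with earlier results of these data known. Named were all members, passing genes of a list and its genes of lowest p up to 4, and the 5 genes most like each member. Alternatives were other pseudocounts, filters, scalings and sums, lane or replicate number in the model, and leaving out 1 library at a time; leaving out both lane 8 libraries, and library sizes from the deposited FPKM, were chosen after seeing the data.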

Additional observations from a re-analysis of the deposited data

Results flagged for a closer look

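Isoforms of the members outside the summed classes had a highest TSCI value above every sham value. They were assembled without an Ensembl ID from 1 exon each and were not part of the gene levels. At Iqgap1, MSTRG.103144.1, which lies beyond the end of the gene, was at 8.31, 0.288 and 0.362 FPKM in replicates 1 to 3 of TSCI, against 0, 0 and 2.81 FPKM in sham. Within its introns, MSTRG.103150.1 was at 6.01 FPKM in TSCI replicate 1, at 0 in the other 2 TSCI libraries and at 0.290 FPKM in sham replicate 3. The intronic MSTRG.103151.1 was at 2.90, 0 and 1.12 FPKM in TSCI, against 1.08 FPKM in its highest sham library, sham replicate 2. In the introns of Iqgap3, MSTRG.71406.1, MSTRG.71407.1 and MSTRG.71408.1 were at 3.37, 2.03 and 1.33 FPKM in TSCI replicate 3 and at 0 in the other 5 libraries. Each of the 6 was thus led by 1 TSCI library, replicate 1 at Iqgap1 and replicate 3 at Iqgap3. Over all genes, intronic isoforms held 9.76%, 1.98% and 3.77% of the bases in TSCI replicates 1 to 3 and 10.2%, 3.83% and 2.44% in sham replicates 1 to 3, highest in the lane 8 library of each group. Their origin was not tested.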

How the results depend on the processing

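The 3 genes and 5 circRNAs were higher in TSCI under every alternative run. Of their 115 log2 fold changes under alternatives, 108 moved by less than the spread between replicates. This tally includes settings that could not move the value. For the 3 genes, no filter, the replicate block and lane 8 as a covariate left the fold change unchanged. Iqgap2, with 1 isoform, was also the same under the other sums. With no overlap between the groups, leaving out a library could not turn the sign for the 3 genes. Iqgap2 was 3.08 and Iqgap3 3.33 with a pseudocount of 0.1, and Iqgap3 was 1.41 with a pseudocount of 1 and 2.59 with all isoforms summed; circRNA2702 ranged from 3.28 to 4.95 with single libraries left out. Calls over whole tables were unstable. Genes called went from 149 to 0 with no filter, 24 with all isoforms summed, 43 with class = isoforms, 71 with median-ratio scaling, 644 with lane 8 as a covariate, 616 without both lane 8 libraries, and 14 to 1448 with single libraries left out. Isoforms called went from 186 (152 higher, 34 lower) to 303 with a pseudocount of 0.1, 17 with no filter, 30 (29 higher, 1 lower) with median-ratio scaling, 0 with lane 8 as a covariate, 4 without both lane 8 libraries, and 54 to 1010 with single libraries left out. CircRNAs called went from 0 to 251 by DESeq2, 1 with DESeq2 size factors and 1 with total counts only. The cause was not tested.

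With single libraries left out, the log2 fold change of Myl9 (0.78) ranged from -0.034 to 2.15, that of Pafah1b1 (-0.60) from -1.08 to 0.0031, MSTRG.103144.1 (0.95) from -0.19 to 1.86 and MSTRG.103151.1 (0.35) from -0.29 to 1.09. The sign turned without TSCI replicate 3 for Myl9, sham replicate 1 for Pafah1b1 and TSCI replicate 1 for the isoforms. Myl9 was -0.96 with class = isoforms, and the isoforms were -0.64 and -0.28 without both lane 8 libraries. Whether the replicate numbers pair the libraries was not settled, since deviations from a mean of 3 libraries depend on one another. Deviations of same-numbered libraries correlated by 0.491, 0.284 and 0.0775 for genes and 0.544, 0.313 and 0.0291 for circRNAs. For genes, TSCI replicate 1 correlated best with sham replicate 1, which was also in lane 8. TSCI replicate 2 correlated more with sham replicate 3 (0.361) than with sham replicate 2 (0.284). With the replicate number as a block, 963 genes, 1 isoform and 0 circRNAs were called; Iqgap1, Iqgap2 and Iqgap3 were among the 963, and none of the 3 was among the 149 called without it.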
